A study of Mus musculus with 12 samples.

Results

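The clustered protocadherins are 58 of the 55417 genes in the expression table, taken by their gene names: 14 members of the alpha cluster (Pcdha and Pcdhac), 22 of the beta cluster (Pcdhb) and 22 of the gamma cluster (Pcdhga, Pcdhgb and Pcdhgc). All lie on the forward strand of mouse chromosome 18. RNA was measured in cells sorted from the pancreas of E17.5 mice of the Gcg-Timer genotype, in which a fluorescent timer reports activity of the glucagon gene by changing colour with age. Every library carries this genotype, age and tissue, and no other treatment is given. Group N held the cells labelled non-α, group A the cells in which green dominated, labelled newly generated α cells, and group B the cells with green and red, labelled more differentiated α cells. Each group had 4 libraries, called N1 to N4, A1 to A4 and B1 to B4 here, whose numbers stand for different mother mice.

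Protocadherins are cadherin-family cell surface proteins, and those of the alpha, beta and gamma clusters bind copies of the same isoform on a facing cell. In neurons each cell expresses its own small combination of isoforms, which lets a neuron tell its own branches from those of its neighbours. An alpha or gamma transcript joins a variable exon, which codes for the extracellular part and has its own promoter, to constant exons that code for a shared cytoplasmic end, whereas a beta gene is complete in its own exon. The C-type members (Pcdhac1, Pcdhac2, Pcdhgc3, Pcdhgc4 and Pcdhgc5) sit at the downstream ends of the alpha and gamma clusters and are known in the nervous system for being expressed by cell type or throughout rather than at random. In mice Pcdhgc4 is needed for the survival of neurons.

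The layout of the clusters bears on what a member's value means. In the coordinates of the deposited table, the alpha members run from 37063237 to 37320714 on chromosome 18, the beta members from 37397991 to 37657532 and the gamma members from 37794846 to 37974926. These coordinates are not those of GRCm38, and the processing notes also list GRCm39 without saying which table it made. All 91 pairs of alpha members and all 231 pairs of gamma members overlapped, with ends that agreed within 4 and 3 bases, while 1 of the 231 pairs of beta members overlapped. In a GRCm38 annotation, a median of 46.5% of an alpha member's exonic bases and 55.2% of a gamma member's were found in no other member, against 100% for a beta member. How reads from the shared exons were divided among alpha or gamma members could not be found in the sources used here, so single alpha and gamma values are less certain than beta values. A cluster's summed value does not depend on that division.

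Library totals ran from 32114292 to 38545756 estimated counts in N, 18168677 to 25873635 in A and 16216967 to 24259218 in B. The summed level of 10 α-cell marker genes was 585 to 729 CPM (counts scaled to a common library total) in N, 19430 to 30870 in A and 43710 to 61770 in B. Markers of other cells moved as well. Genes called lower in B against A numbered 15 of 16 mesenchymal, 11 of 12 endothelial, 8 of 10 immune, 5 of 8 mesothelial, 4 of 7 β-cell, 2 of 8 ductal, 2 of 12 Schwann and neural crest and 1 of 11 neuronal markers, and 0 of 11 acinar and 0 of 8 erythroid markers. Of the lists, 1 ductal and 1 Schwann and neural crest gene (Gfra3) were called higher. Among all tested genes, 9.12% were called lower and 4.63% higher in B against A. In A against N all 16 mesenchymal and all 8 erythroid markers were called lower, with 10 of 12 endothelial, 9 of 11 acinar, 7 of 8 mesothelial and 5 of 10 immune markers. In that comparison 21.3% of all tested genes were called lower. The endothelial markers summed to 417 to 796 CPM in N, 87.3 to 321 in A and 22.7 to 69.7 in B, and the immune markers to 691 to 868, 112 to 400 and 56.9 to 100.5 CPM. The mesothelial markers summed to 307 to 379 CPM in N, 34.9 to 90.9 in A and 14.3 to 34.1 in B. The acinar markers summed to 49840 to 92230 CPM in N, 15030 to 26620 in A and 9051 to 20550 in B, and the erythroid markers to 75940 to 292100, 303 to 1893 and 245 to 830 CPM. The Schwann and neural crest sum was highest in B, at 269 to 335 CPM, of which Gfra3 made up 181 CPM on average, while 6 of its 12 genes were called lower in B against N. In B against N 4 of 11 neuronal markers were called higher, among them Snap25 and Uchl1, and 3 lower, among them Hand2 and Stmn2. Their median log2 change was -1.89. These neuronal counts were near the shares of all tested genes in B against N, 29.7% higher and 30.5% lower. In sorted bulk samples, fewer cells of a type and less RNA per cell cannot be told apart.

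The beta cluster was lower in the more differentiated α cells than in the newly generated ones, and lower than in the non-α cells on the CPM scale, while the summed gamma level overlapped between the groups and its leading member differed. The summed beta level was 43.9, 52.4, 30 and 51.7 CPM in N1 to N4. It was 66, 57.6, 55 and 33.2 CPM in A1 to A4, and 19.9, 16.4, 16.5 and 10.1 CPM in B1 to B4. Every B library was below every A and every N library, and the B mean of 15.7 ± 4.07 CPM (SD, n = 4) was 29.7% of the A mean of 53 ± 14 and 35.3% of the N mean of 44.5 ± 10.4. A and N overlapped. Deposited TPM is scaled for length and library total, without the TMM scaling used for CPM. In TPM the beta sum was 9.21 ± 3.42 in N, 20.8 ± 5.82 in A and 5.91 ± 1.37 in B, so B stayed lower than A by 1.81 on the log2 scale. In TPM the A and N libraries overlapped, and so did the B and N libraries, with a log2 ratio of -0.64 for B against N in place of -1.50 in CPM.

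Some markers of other cells were also lower in B than in A. The mesenchymal markers summed to 19340, 23530, 12860 and 25440 CPM in N1 to N4, 7087, 11020, 2722 and 6163 in A1 to A4, and 684, 1485, 446 and 1082 in B1 to B4. All 16 were called lower in A against N. The beta sums of A and N overlapped, with a log2 ratio of 0.251 in CPM and 1.175 in TPM. Of the 7 β-cell markers, Ins1, Ins2, Mafa and Slc2a2 were called lower in B against A, with log2 changes from -2.68 to -2.47, and in B against N, from -2.06 to -1.90, and were not called in A against N. The other 3, Iapp, Nkx6-1 and Pdx1, were not called in B against A. They were called higher in A against N (1.95, 1.11 and 0.585), and Iapp and Nkx6-1 also in B against N (1.75 and 1.07). The part of these markers in the beta values was not tested.

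The summed gamma level was 132 to 181 CPM in N, 157 to 204 in A and 145 to 166 in B. The 3 groups overlapped, with means of 159 ± 20.2, 176 ± 20 and 157 ± 9.37 CPM (SD, n = 4 each). The scale decides how N compares: in TPM the gamma sum was 26 ± 7.24 in N, 61.1 ± 5.5 in A and 58.3 ± 4.55 in B, and A and B overlapped. The alpha cluster had the lowest sum in every group in CPM and in TPM. Its level was 3.07, 4.91, 4.93 and 3.78 CPM in N1 to N4, 9.27, 5.7, 16.6 and 6.68 in A1 to A4, and 5.97, 4.24, 6.23 and 1.79 in B1 to B4. Every A library was above every N library in this sum, and A and B overlapped.

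**Figure D1:**
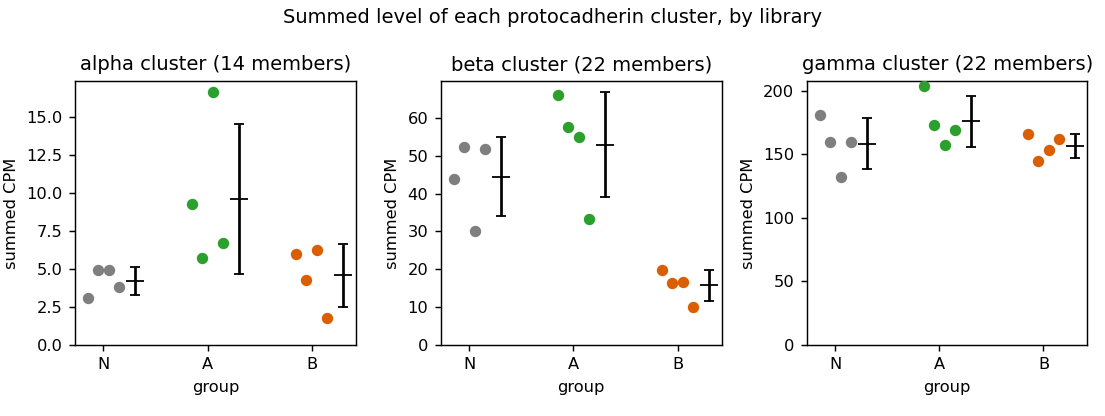
Summed CPM of the alpha, beta and gamma clusters in each library (points, by group) with the group mean and SD (bars, n = 4). The beta panel shows all 4 B libraries, at 10.1 to 19.9 CPM, below the A libraries at 33.2 to 66 CPM, while the gamma panel shows overlapping groups.

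Single members were compared with edgeR's quasi-likelihood test over all 17230 genes that passed its filter on low counts, and a member was called at a Benjamini-Hochberg adjusted p under 0.05. Of the 58 members, 45 were tested: 5 alpha, 18 beta and 22 gamma. The 9 alpha and 4 beta members left out were at or below 2.57 CPM in every library. Fold changes are log2 differences relative to the typical gene, after trimmed-mean (TMM) scaling. That scaling matters for comparisons with N: with library totals alone the median of all genes moved from -0.02 to 0.55 for A against N and from -0.03 to 0.51 for B against N. For B against A it stayed within -0.01 and -0.04.

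B against A asks what differs between more differentiated and newly generated α cells. No member was called higher, 9 were called lower and 36 were not called. The 9 are 20% of the tested members, where 9.12% of all tested genes were called lower and 4.63% higher. Before adjustment 15 members had p under 0.05, of which 1 was higher. Of the 9, 8 were beta members (Pcdhb5, Pcdhb7, Pcdhb9, Pcdhb14, Pcdhb16, Pcdhb17, Pcdhb19 and Pcdhb20), which is 44.4% of the tested beta members, and the other was Pcdhgc3. The fitted change was negative for 17 of 18 beta members, with a median of -1.50, for 16 of 22 gamma members, with a median of -0.39, and for 4 of 5 alpha members, with a median of -0.88. Over all genes the median was -0.01. The 4 B libraries all lay below the 4 A libraries for 11 members (8 beta and 3 gamma) and above them for 1, Pcdhgc4, where 9.28% and 9.67% of all tested genes separated in these directions. By DESeq2, 12 members were called lower and 1, Pcdhgc4, higher, beside 2127 lower and 1177 higher of the 31024 genes in that fit.

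**Figure D2:**
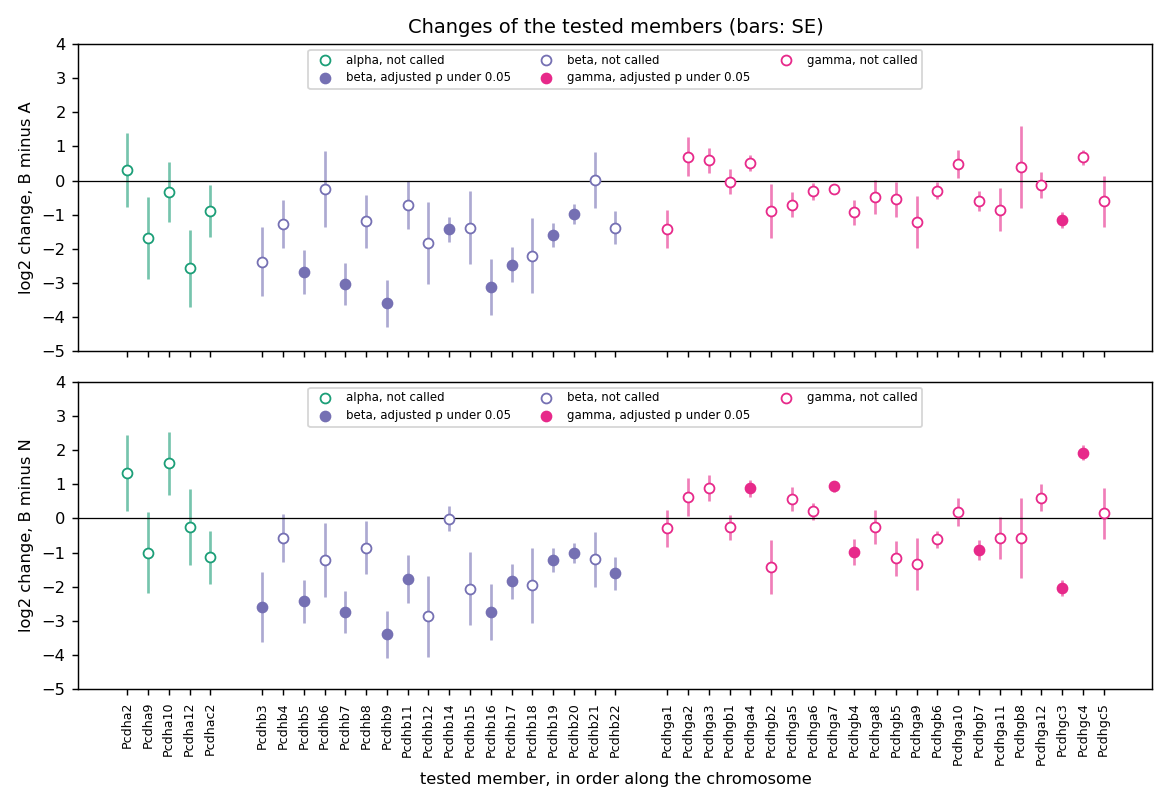
Log2 change (points) with its SE (bars) for each of the 45 tested members in chromosome order, for B minus A (top) and B minus N (bottom), with called members filled. In the top panel 8 filled beta points and Pcdhgc3 lie below 0, and in the bottom panel Pcdhga4, Pcdhga7 and Pcdhgc4 are the filled points above 0.

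Pcdhgc3 and Pcdhgc4, neighbouring C-type members of the gamma cluster, ran in opposite directions. Pcdhgc3, which in the nervous system is also expressed outside neurons, was at 61.3, 54.5, 33.2 and 59.5 CPM in N1 to N4, 29.4, 37.4, 17.8 and 28.9 in A1 to A4, and 14.6, 11.5, 10.46 and 14.2 in B1 to B4. All B libraries were below all A libraries, and N and A overlapped at N3 and A2. It fell by 1.16 on the log2 scale from A to B (SE 0.23 and edgeR adjusted p = 0.0059). It also fell by 0.88 from N to A (SE 0.23 and edgeR adjusted p = 0.00734), but with library totals alone that difference was -0.32 (edgeR adjusted p = 0.261), and its mean TPM was 8.65 in N and 9.49 in A.

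Pcdhgc4 was at 14.5, 8.32, 13.5 and 8.72 CPM in N1 to N4, 29.9, 16.8, 33.2 and 26.7 in A1 to A4, and 42, 42.1, 47.8 and 39.7 in B1 to B4. The groups did not overlap, and their order was N, A, B. It rose from N to A by 1.24 on the log2 scale (SE 0.22 and edgeR adjusted p = 0.000614) and was higher in B than in N by 1.93 (SE 0.23 and edgeR adjusted p = 9e-06). The step from A to B, 0.69 (SE 0.22), missed the threshold with an edgeR adjusted p of 0.0527. With the mother's number as a block it passed (0.73, edgeR adjusted p = 0.0128), and over all 22 alternatives this adjusted p ran from 0.0128 to 0.128.

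The ratio of these neighbours needs no scaling between libraries. Counts of Pcdhgc4 per count of Pcdhgc3 were 0.236, 0.153, 0.408 and 0.147 in N1 to N4, 1.02, 0.449, 1.86 and 0.925 in A1 to A4, and 2.88, 3.67, 4.57 and 2.79 in B1 to B4. Pcdhgc3 had more counts in every N library and Pcdhgc4 in every B library, with A between them and no overlap. In the second deposited table, made on another build, the same ratio was 0.161 to 0.348 in N, 0.44 to 1.15 in A and 2.09 to 2.56 in B. As a share of the gamma cluster's counts, Pcdhgc3 went from 25.1 to 37.1% in N through 11.4 to 21.7% in A to 6.84 to 8.79% in B, and Pcdhgc4 from 5.19 to 10.2% through 9.72 to 21.2% to 24.5 to 31.2%. Mean sums of mesenchymal, endothelial, immune, mesothelial, acinar, ductal and erythroid markers fell from N through A to B, as Pcdhgc3 did. Those of α-cell and of Schwann and neural crest markers rose in the order of Pcdhgc4. The part of these markers in the values of Pcdhgc3 and Pcdhgc4 was not tested.

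The remaining C-type gamma member, Pcdhgc5, was low, at 0.651 ± 0.353 CPM in N, 1.1 ± 0.941 in A and 0.716 ± 0.576 in B (SD, n = 4), and was not called in any comparison. By mean deposited TPM, Pcdhgc4 led all members in A and B and Pcdhgc3 led in N. The lead in A did not hold in mean CPM, at 28.4 ± 8.03 for Pcdhgc3, 27.3 ± 2.55 for Pcdhga7 and 26.6 ± 7.08 for Pcdhgc4. Mean TPM of Pcdhgc4 was 2.2 ± 0.712 in N, 11.8 ± 4.68 in A and 21.3 ± 3.71 in B. Next in B was Pcdhga7 with 7.61 ± 1.22 TPM, and Pcdhgc3 had 4.2 ± 0.85 TPM. Mean CPM in B was 42.9 for Pcdhgc4, 23.1 for Pcdhga7 and 12.7 for Pcdhgc3. Pcdhgc4 thus had more TPM for its CPM than Pcdhgc3, though its listed length is greater (5024 against 4687 bases). The length used for its TPM was not found in the sources used here, so the size of its lead in TPM is uncertain.

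Pcdhga7, a variable member of the gamma A subfamily, had the highest mean TPM of the variable members in each group, at 2.12 ± 0.572 in N, 9.26 ± 1.08 in A and 7.61 ± 1.22 in B (SD, n = 4). It was at 15.1, 12.3, 10.7 and 10.1 CPM in N1 to N4, 29, 25.9, 29.9 and 24.5 in A1 to A4, and 21, 20, 25.2 and 26.1 in B1 to B4. A and B overlapped and both stood above N. It rose from N to A by 1.18 on the log2 scale (SE 0.16 and edgeR adjusted p = 5.9e-05) and was higher in B than in N by 0.94 (SE 0.16 and edgeR adjusted p = 0.000173). The A to B difference was -0.25 (SE 0.15 and edgeR adjusted p = 0.328).

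**Figure D3:**
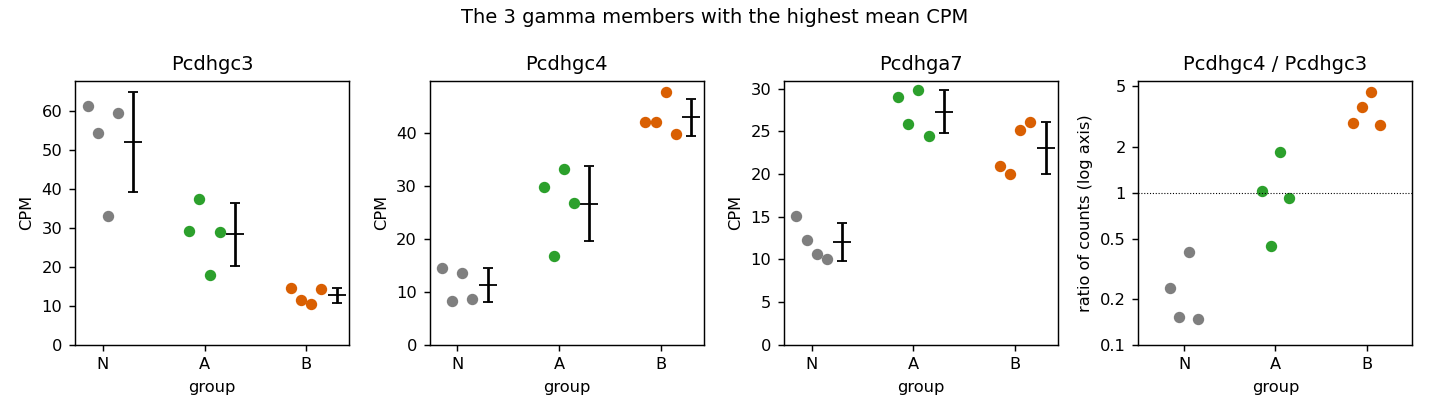
CPM of Pcdhgc3, Pcdhgc4 and Pcdhga7 in each library (points) with group mean and SD (bars, n = 4), and the ratio of Pcdhgc4 to Pcdhgc3 counts on a log axis. The ratio is below 1 in all N libraries and above 1 in all B libraries, from 2.79 to 4.57.

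Pcdhgb6, a variable member of the gamma B subfamily, had 12.8 ± 2.09 CPM in N, 10.3 ± 4.33 in A and 8.43 ± 1.3 in B, and was not called in any comparison. In B against N (-0.61, edgeR adjusted p = 0.0536) it passed under 11 of the 22 alternatives, among them the mother's number as a block (-0.59, edgeR adjusted p = 0.0464), with adjusted p from 0.0136 to 0.834 over all of them. In A against N it passed without A1 (-0.65, edgeR adjusted p = 0.0229). Of the members called against N, these were named after their values were seen. Pcdhga5 had 4.67 ± 1.02 CPM in N, 11.3 ± 2.75 in A and 6.97 ± 3.8 in B, and rose from N to A by 1.27 (SE 0.36 and edgeR adjusted p = 0.0118). Pcdhga4 was higher in B than in N by 0.88 (SE 0.25 and edgeR adjusted p = 0.00705), and Pcdhgb4 and Pcdhgb7 were lower, with log2 differences of -0.98 and -0.91 (edgeR adjusted p = 0.0365 and 0.0158). Summed over the 20 gamma members other than Pcdhgc3 and Pcdhgc4, levels were 85.5 to 106 CPM in N, 106 to 145 in A and 91.8 to 110 in B.

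In the beta cluster most calls were lower levels in B, and 1 of 18 tested members was called in A against N. Pcdhb9 was at 1.95, 3.8, 0.917 and 2.44 CPM in N1 to N4, 4.59, 0.801, 3.5 and 1.55 in A1 to A4, and 0.0742, 0.338, 0.269 and 0.162 in B1 to B4. All B libraries were below all others, from 2, 9, 7 and 3 counts. It fell by 3.59 on the log2 scale from A to B (SE 0.68 and edgeR adjusted p = 0.00442), the smallest p of any member in B against A, and was lower in B than in N, with a log2 difference of -3.39 (SE 0.68 and edgeR adjusted p = 0.000733).

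Pcdhb7 was at 3.87, 4.28, 2.98 and 3.75 CPM in N1 to N4, 4.73, 6.64, 4.57 and 2.34 in A1 to A4, and 1.15, 0.638, 0.0384 and 0.379 in B1 to B4. B did not overlap with A or N, and its lowest library, B3, held 1 count. Pcdhb7 fell by 3.025 on the log2 scale from A to B (SE 0.61 and edgeR adjusted p = 0.00631). Pcdhb16 was at 2.41 to 5.27 CPM in N, 2.51 to 6.69 in A, and 1.85, 0.338, 0 and 0.216 in B1 to B4. It fell by 3.11 from A to B (SE 0.82 and edgeR adjusted p = 0.0232), with B1 well above the other B libraries and no overlap with A; this call was lost without A2, without B2, without B4 and in the fit of A and B alone (edgeR adjusted p = 0.0535 to 0.0631).

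Pcdhb5 was at 1.19 to 1.7 CPM in N, 0.551 to 2.21 in A and 0.0371 to 0.5 in B, below all A and N libraries, and fell by 2.67 from A to B (SE 0.64 and edgeR adjusted p = 0.0152). Pcdhb17 was at 11.5, 7.63, 6.7 and 2.13 CPM in A1 to A4 and 0.741, 0.938, 2.38 and 0.974 in B1 to B4. Its groups overlapped at A4 and B3, and it fell by 2.46 (SE 0.52 and edgeR adjusted p = 0.00752).

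Pcdhb14, the beta member called in A against N, was highest in A. It was at 2.17, 4.28, 1.91 and 4.3 CPM in N1 to N4, 8.66, 6.64, 10.8 and 7.71 in A1 to A4, and 5.15, 2.7, 2.88 and 1.79 in B1 to B4. All A libraries were above all others, and N and B overlapped. It rose from N to A by 1.42 (SE 0.37 and edgeR adjusted p = 0.00741) and fell by 1.43 from A to B (SE 0.37 and edgeR adjusted p = 0.022), which left B minus N at -0.01 (edgeR adjusted p = 0.982). The A to B call was lost without A1, B3 or B4 and without A3 and B3 (edgeR adjusted p = 0.0518 to 0.0851).

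Pcdhb20 was at 3.9 to 4.78 CPM in N, 2.93 to 5.01 in A and 1.35 to 2.84 in B, with B below both other groups. It fell by 0.97 from A to B (SE 0.29 and edgeR adjusted p = 0.0446), a call that was lost with the mother's number as a block (-0.98, edgeR adjusted p = 0.0509) and under 12 of the 22 alternatives in all, with adjusted p from 0.0069 to 0.112. It was lower in B than in N, with a log2 difference of -1.02 (SE 0.29 and edgeR adjusted p = 0.00835), a call lost with library totals alone (-0.49, edgeR adjusted p = 0.171).

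**Figure D4:**
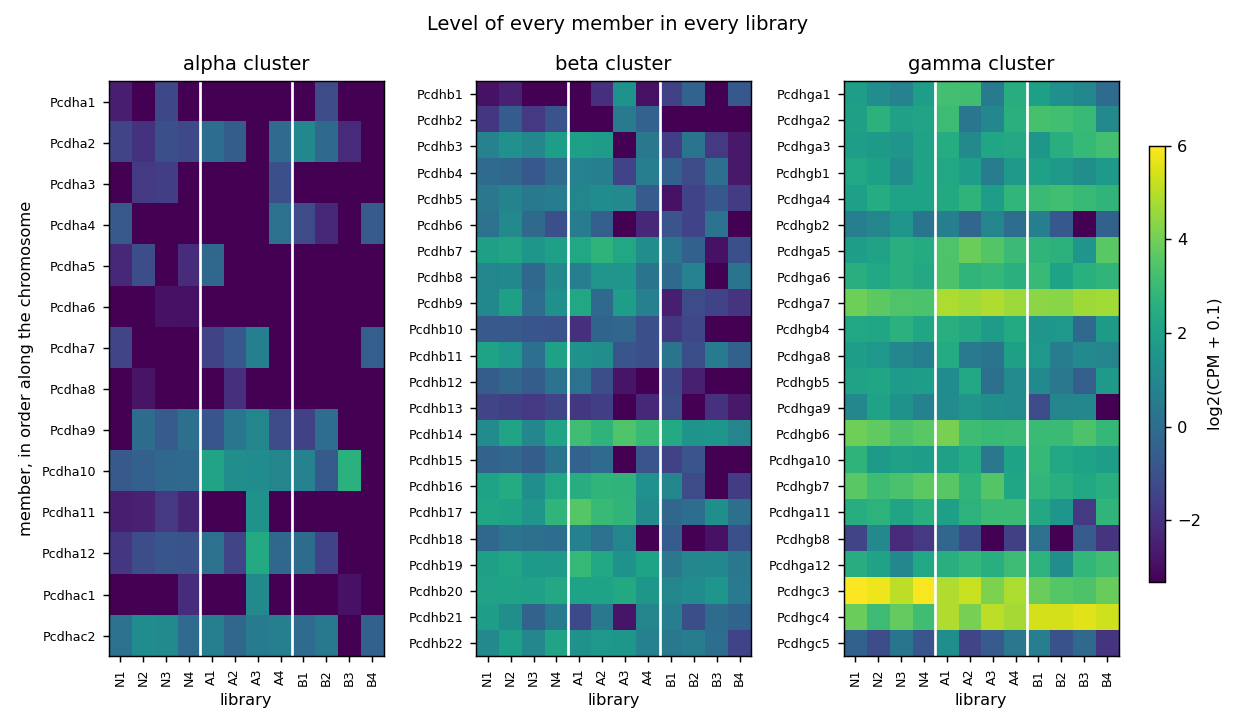
Level of all 58 members, tested or not, in all 12 libraries as log2(CPM + 0.1), with members in chromosome order and white lines between the groups. The beta panel darkens in B1 to B4, and the bright row of the gamma panel passes from Pcdhgc3 in N to Pcdhgc4 in B.

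The alpha members were low or at 0. In every library at least 5 of the 14 had no count, rising to 11 of 14 in B3 and B4, and 9 were not tested. By edgeR, 0 of the 5 tested were called in any comparison. Before adjustment 1 had p under 0.05 in B against A and 0 in either comparison with N, and DESeq2 called 0 of the 5. Pcdha10 was at 0.506 to 0.802 CPM in N, 4.21, 2.31, 2.22 and 1.79 in A1 to A4, and 1.67, 0.525, 6.07 and 0 in B1 to B4. All A libraries were above all N libraries and B spanned both. The change from N to A, 1.95 (SE 0.92), had an edgeR adjusted p of 0.101. It passed in the fit of N and A alone (1.97, edgeR adjusted p = 0.00339), with library totals alone (2.52, edgeR adjusted p = 0.0329) and without B4 (1.95, edgeR adjusted p = 0.0235). The change from N to B, 1.61 (SE 0.92 and edgeR adjusted p = 0.145), passed without B4 (2.02, edgeR adjusted p = 0.0194) and was 0.14 without B3 (edgeR adjusted p = 0.891). Within B3, Pcdha10 held 97.5% of all alpha counts.

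Among the C-type alpha members, Pcdhac2 had 1.54 ± 0.681 CPM in N, 1.29 ± 0.367 in A and 0.694 ± 0.531 in B and led the cluster per length in N, with 0.196 ± 0.0499 TPM. Pcdhac1 was at 0 in 9 libraries and reached 2.08 CPM in A3. Pcdha12 was at 5.06 CPM in A3 and 0.283 to 1.03 in the other A libraries, and Pcdha9 was at 0 in N1, B3 and B4. A3 held 375 alpha counts, against 121 to 198 in the other A libraries; without it the alpha sum of A was above N by 0.79 on the log2 scale instead of 1.20.

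The spread between libraries of a group is given as a description. The median coefficient of variation over the 45 tested members was 29.8% in N, 43.2% in A and 55.1% in B. Over all tested genes in the same range of mean CPM over the 12 libraries, 0.399 to 31.1, it was 24.4%, 30% and 27.8%. Levels within a group were not matched, and Pcdhb9, for example, had 2 to 9 counts in B. The part of low counts in this spread was not tested. The beta members had medians of 32.9%, 53.7% and 75.9%, and the gamma members of 25%, 38.1% and 43%. The number of members with no count was 5 to 6 in N, 8 to 12 in A and 9 to 19 in B, highest in B3 and B4. These numbers are not corrected for depth, and B4 had the lowest total. After scaling to the smallest total, members with at least 10 counts numbered 34 to 40 in N, 40 to 44 in A and 29 to 37 in B.

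A against N compares newly generated α cells with the other sorted cells. Called higher were 4 members (Pcdhb14, Pcdhga5, Pcdhga7 and Pcdhgc4) and called lower was 1 (Pcdhgc3), or 11.1% of the tested members. Of all tested genes, 45.1% were called, 23.8% higher and 21.3% lower. The median log2 change was 1.03 for alpha, 0.22 for beta and 0.08 for gamma members. In 7 members all A libraries were above all N libraries and in 0 below, where 22% and 21.3% of all tested genes separated in these directions. Directions depend on the scaling, since library totals alone gave 11 members called higher and 0 lower. That scaling called 8243 of all 17230 tested genes higher and 1386 lower.

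B against N gave 3 members called higher (Pcdhga4, Pcdhga7 and Pcdhgc4) and 13 called lower. Of the 13, 10 were beta members (the 7 called lower in B against A other than Pcdhb14, with Pcdhb3, Pcdhb11 and Pcdhb22) and 3 were gamma members (Pcdhgb4, Pcdhgb7 and Pcdhgc3). The called share was 35.6% of tested members and 60.2% of all tested genes, with 29.7% of genes higher and 30.5% lower. In the beta cluster 55.6% of tested members were called lower and all 18 had a negative fitted change, with a median of -1.80. All B libraries were above all N libraries for 3 members and below for 17, where 28.8% and 29.5% of all tested genes did. With library totals alone 7 members were called higher and 6 lower, beside 8263 and 3407 of all 17230 tested genes. B against A and B against N share the B libraries, and A against N shares its groups with each, so their counts are not independent of one another.

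The non-clustered protocadherins, which are encoded outside the clusters and carry other cytoplasmic ends, were compared as the nearest relatives. Of 12 tested, 1 was called higher and 6 lower in B against A, with a median of -2.06. Among all tested genes 4.63% were called higher and 9.12% lower. Pcdh8, known for drawing cadherins in from the surface at synapses, was at 0.594 to 2.39 CPM in N, 24.7 to 47.7 in A and 61.5 to 122 in B, and it rose from A to B by 1.30 (SE 0.30 and edgeR adjusted p = 0.0122). Pcdh7 went from 11.7 to 33.2 CPM in N to 3.19 to 16.4 in A and 0.154 to 0.975 in B, and fell by 3.73 from A to B (SE 0.57 and edgeR adjusted p = 0.00143). Pcdh18 and Pcdh19 fell by 3.45 and 3.04 (edgeR adjusted p = 0.00238 and 0.00192). Pcdh1 was not called in B against A (0.40, edgeR adjusted p = 0.301). In A against N 8 of the 12 were called lower and 2 higher, where 21.3% and 23.8% of all tested genes were. The beta sum overlapped between N and A. The part of other cell types in these values was not tested.

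**Figure D5:**
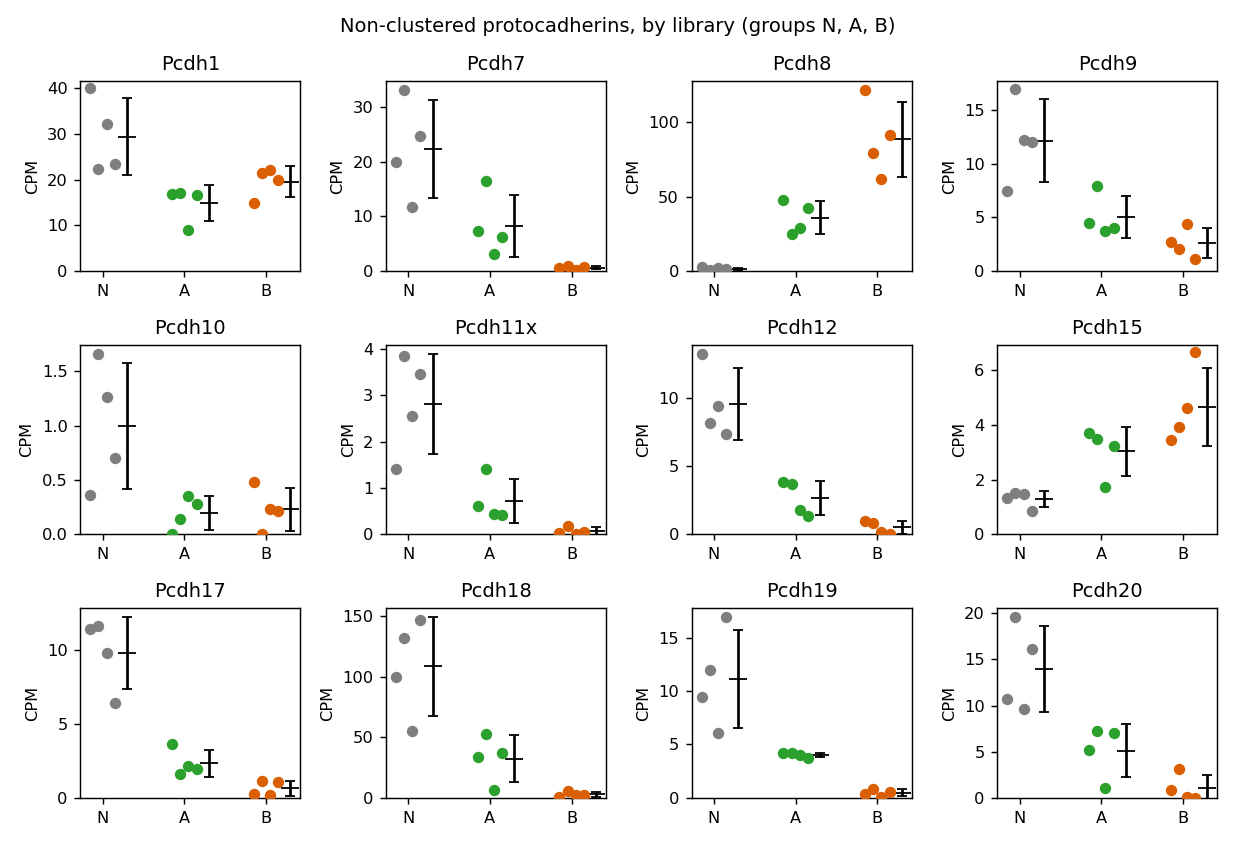
CPM of the 12 non-clustered protocadherins in each library (points) with group mean and SD (bars, n = 4). Pcdh8 climbs from N to B, reaching 61.5 to 122 CPM, while Pcdh7, Pcdh18 and Pcdh19 descend from N through A to B.

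Other cell adhesion families moved in mixed ways. Their counts stand beside 4.63% of all tested genes called higher and 9.12% called lower in B against A. Of 16 tested cadherins of the classical and related types, 0 were called higher and 3 lower in B against A, namely Cdh5, Cdh6 and Cdh11, and the epithelial cadherin Cdh1 was not called (-0.23, edgeR adjusted p = 0.512). DESeq2 called 1 higher and 3 lower, and before adjustment 2 were higher at p under 0.05. Among 8 tested giant cadherins of the Fat, Dachsous and Celsr families 3 were called lower and 0 higher in B against A, before adjustment 1 was higher, and DESeq2 called 0 higher and 2 lower. Dchs2 was at 0 to 1.40 CPM in A and 0 in all 4 B libraries (edgeR adjusted p = 0.0138), and Fat4 and Dchs1 fell by 2.13 and 2.32 (edgeR adjusted p = 0.0222 and 0.0461). Fat1 was not called (0.44, edgeR adjusted p = 0.118). Cdh5 marks endothelial cells, and the endothelial and mesenchymal marker sums were lower in B; their part in these values was not tested.

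Among factors that act on the clustered genes in other tissues, calls went in both directions. Of 27 tested chromatin regulators, 3 were called higher and 2 lower in B against A, where 4.63% of all tested genes were called higher and 9.12% lower. CTCF and cohesin loop the cluster promoters to their enhancers, and Ctcf was at 39.6, 37.3 and 42.2 CPM on average in N, A and B and was not called (0.18, edgeR adjusted p = 0.498). The cohesin genes Rad21 and Smc3 rose from A to B by 0.36 and 0.51 (edgeR adjusted p = 0.0301 and 0.0113). Rest, a repressor of neuronal genes, was at 45.1 to 57.4 CPM in N, 15.2 to 29.6 in A and 3.96 to 8.44 in B, and fell by 2.06 from A to B (SE 0.28 and edgeR adjusted p = 0.000797). Trim28 rose by 0.43 (edgeR adjusted p = 0.0239) and Tet3, a demethylating enzyme, fell by 0.53 (edgeR adjusted p = 0.0291).

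Calls also went in both directions among partners of the shared cytoplasmic ends. Of 23 tested signalling and processing partners, 2 were called higher and 1 lower in B against A, beside 4.63% and 9.12% of all tested genes. Cyfip2, a subunit of the WAVE complex that alpha members recruit, rose from A to B by 0.74 (edgeR adjusted p = 0.0402). Axin1, a Wnt inhibitor bound by the product of Pcdhgc3, rose by 0.45 (edgeR adjusted p = 0.00893), and the kinase gene Fyn fell by 0.45 (edgeR adjusted p = 0.03). Ptk2, the focal adhesion kinase gene whose product gamma and alpha members inhibit, was at 80.9, 50.6 and 48.5 CPM on average in N, A and B and was not called in B against A (-0.06, edgeR adjusted p = 0.84).

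Of 11 tested genes next to the clusters on the chromosome 1 was called lower and 0 higher in B against A, as by DESeq2, with 1 higher before adjustment. The edgeR shares of all tested genes were 9.12% lower and 4.63% higher. Arap3, which is known from endothelial cells, fell by 2.52 (SE 0.45 and edgeR adjusted p = 0.00313). Hars, which lies on the alpha side, had 88.8, 70.2 and 75.3 CPM on average in N, A and B and was not called (0.10, edgeR adjusted p = 0.745). Taf7, which lies between the beta and gamma clusters, had 19.8, 29.6 and 30.3 CPM and was not called in B against A (0.03, edgeR adjusted p = 0.94).

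The 4 genes whose level tracked the beta sum most closely over the 12 libraries, by Pearson's r of log2 CPM, were Anxa5 (0.947), Pgf (0.943), Chst12 (0.93) and Kazald1 (0.929). For the gamma sum the closest 5 were Gm13991 (0.911), Heca (0.859), 9430085M18Rik (0.855), Sez6l (0.806) and 2410004P03Rik (0.803), and for the alpha sum Ccdc126 (0.921), Tes (0.912), Cer1 (0.888), Gm45902 (0.883) and B3galt6 (0.88). These libraries came from 3 sorts, and libraries of the same number may share a mother. The genes were picked from all tested genes for their r, and the values are a description.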

How the data were processed

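RNA from 12 sorted cell libraries (3 groups of 4) was extracted with an RNeasy kit and prepared with a SMARTER mRNA kit, per the labels' protocols. The submitters' processing notes name STAR 2.5.2b, DRAGEN, GRCm38 (mm10) and GRCm39 (mm39), without roles. The authors deposited 2 gene tables, each with estimated counts and TPM per library; the table with reporter sequences added was used, and the other, whose gene starts match GRCm38 for 84.4% of matched symbols (4.09% in the main table), served as an alternative. The deposited log table was not used. Reads from exons shared between members were divided in a way not given in the sources used here.

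Deposited estimated counts were rounded and tested with edgeR 4.0.16 in R 4.3.3: all 12 libraries in 1 model with a mean per group, filterByExpr, TMM factors and the quasi-likelihood test with Benjamini-Hochberg adjustment over 17230 genes. CPM uses TMM-scaled totals, and SE is the log2 change divided by the square root of F. Cluster sums carry no test. Deposited TPM served only for levels. The pipeline was tested on simulated data. Alternatives were other scaling factors, no filter, a minimum of 10 counts in 8 libraries, DESeq2 1.42.0 and the mother's number as a block. Further ones were fits of the compared groups alone, the other table and leaving out each library.

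The main tests did not use the replicate numbers as pairs. Pairing entered only in the alternative with the mother's number as a block, because the labels say that the replicates came from different mothers. They do not state outright that the same number in the 3 groups is the same mother. Deviations of same-numbered libraries correlated at 0.03 to 0.32, and those of differently numbered ones at -0.24 to 0.09. No libraries were duplicates (lowest chi-square 26 per degree of freedom). The members and gene lists were chosen with earlier results of these data known. Members named are the C-type members, the 4 highest by mean CPM in each cluster and the 3 called with the smallest p in each cluster and comparison; others are named only in lists of calls or where stated. For related lists the rule was the leading gene and the 3 with the smallest p in each comparison. The text gives those called in B against A, plus Pcdh8 and Rad21 from comparisons with N; the others under the rule are not described. Tet3, Taf7 and the marker genes were named after their values were seen.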

Additional observations from a re-analysis of the deposited data

Results flagged for a closer look

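In 6 of 60 groups of 4 libraries checked, 1 library stood far from the other 3 by Dixon's test. For normally spread values chance flags about 1 group in 20, a rate that does not hold for counts near 0. Of the 6 flagged groups, 3 were for Pcdhac1, which had a count in only 1 library of each group: 0.128 CPM in N4, 2.08 CPM in A3 and 0.0384 CPM in B3. With all other values at 0, these flags were fixed in advance. Pcdha12 was at 5.06 CPM in A3 against 0.283 to 1.03 in the other A libraries. Pcdhb17 was at 2.38 CPM in B3 against 0.741 to 0.974 in the other B libraries. Pcdhgb6 was at 16.8 CPM in A1 against 7.81 to 8.58 in the other A libraries. Their causes were not tested.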

How the results depend on the processing

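For B against A the direction of every cluster sum and the calls of Pcdhb5, Pcdhb7, Pcdhb9, Pcdhb17 and Pcdhgc3 held under all alternatives run. Of 1051 results for single named members under alternatives, 982 kept direction and call, 22 lost a call, 22 gained one and 25, none of them called, changed sign. Members called higher in B against A numbered 1 instead of 0 with DESeq2, with only the groups compared and with the replicate block, and 0 to 1 when single libraries were left out. The member called was Pcdhgc4, and the block also lost Pcdhb20 in B against A and gained Pcdhgb6 in B against N; it changed no other call of a named member.

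Scaling by library totals alone moved comparisons with N, where it called 8243 of all 17230 tested genes higher in A and 8263 higher in B. In A against N it gave 11 members called, 11 higher and 0 lower, and cluster sum ratios (log2) of 1.776 for alpha, 0.814 for beta and 0.715 for gamma. Summed TPM gave 2.304, 1.175 and 1.231. In B against N library totals gave 7 higher and 6 lower, and sums of -0.971 for beta and 0.522 for gamma, and summed TPM gave 1.216, -0.639 and 1.163 for alpha, beta and gamma. Sign changes with library totals were 0.324 for Pcdhac2, 0.511 for Pcdhb20 and 0.256 for Pcdhgb6 in A against N, and 0.279 for Pcdha12 and 0.514 for Pcdhb14 in B against N. Pcdhgc5 in B against N was -0.039 with the block and -0.15 in the other table.

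With libraries left out, including A3 and B3 together (chosen after seeing the data), B against A ran from -1.231 to 0.088 for Pcdhgc5, -1.877 to 0.067 for Pcdha10 and -0.512 to 0.048 for Pcdhgb6. A against N ran from -0.173 to 0.074 for Pcdhb20 and -0.219 to 0.553 for Pcdhb9. B against N ran from -0.471 to 0.567 for Pcdhgc5, -1.865 to 0.168 for Pcdha12 and -0.356 to 0.183 for Pcdhb14. Members called lower in A against N numbered 1 to 2, and in B against A 6 (without B4) to 10. Genes of the 6 related lists called in B against A numbered 14 (without A2) to 24, against 22 with all libraries. The causes were not tested. Low counts limit the alpha members and the beta members in B most.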
